A study of Danio rerio with 13 samples.

Results

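Trimethylation of histone H3 at lysine 4 (H3K4me3) was compared between resected and uninjured zebrafish ventricles, promoter by promoter. The material was 3 H3K4me3 ChIP-seq libraries from hearts taken 5 days after the ventricular apex was cut off, against 3 from uninjured hearts. Fish of both groups were of the TuAB strain, carried no stated transgene or mutation and were 1 to 1.5 years old. The lower part of the ventricle was dissociated, and the cells kept by a 10 micrometre mesh, enriched for cardiomyocytes, were fixed for 30 minutes in 1% formaldehyde. The series holds 13 samples, of which the 6 H3K27me3 libraries are used below at the H3K4me3 windows and the 1 input sample was not analysed here. The compared features were all 42015 promoter windows outside the mitochondrial genome, of 42037 in the deposited H3K4me3 table. Nearly all are 4 kb wide, so that levels can be set side by side between genes. They belong to 24416 gene IDs.

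H3K4me3 is laid down around the start sites of transcribed genes by SET1 and MLL family methyltransferases and is the usual mark of an active promoter. Zebrafish regrow resected heart muscle from cardiomyocytes that divide, while epicardial cells, endocardial cells and leukocytes take part in the response at the wound. A chromatin library from tissue averages over all cells in it, so fewer cells of a type and less mark per cell cannot be told apart here.

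The deposited H3K4me3 table gives, per window, the normalised read count averaged over both groups, a log2 fold change of resected over uninjured, its standard error (SE) and an adjusted p, but no value per library. No sample's own level can therefore be shown, and the test is the authors' own on 3 against 3 libraries described as biological replicates. The fold changes are shrunken towards 0, and undoing this multiplied the log2 values of called genes by a median of 1.35. A gene stands for its window with the highest mean count, a "change" means an adjusted p under 0.05, and windows with a mean count under 51.8 carry no adjusted p. Positions are counted from 1 in the table's own genome build, whose name is not stated. All per-gene numbers on level, change and error below are read from the authors' deposited table.

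Of 24891 windows with an adjusted p, 358 were higher after resection (1.44%) and 377 were lower (1.51%), which is 2.95% in all. Of 15351 genes with an adjusted p, 234 were higher (1.52%) and 215 were lower (1.40%), or 2.92% in all. At an unadjusted p under 0.05 the numbers were 947 genes higher (6.17%) and 891 lower (5.80%). The median log2 fold change over all tested genes was 0.04. Of the 15351 tested genes 14850 lay outside 3 themes, the lists for heart muscle, cell cycle and leukocytes, and 501 lay inside. Outside lay 175 of the 234 higher genes and 164 of the 215 lower ones, while the 501 inside held 59 and 51. Calls were thus more frequent inside the themes than outside, but members of these lists were chosen with earlier results of these data known. Of the changed genes outside, 48 higher and 52 lower ones had a proper symbol and belonged to none of 110 gene classes. The same held for 5724 of all tested genes.

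Gains and losses sat at promoters of different strength. The median mean count was 111 at genes that rose and 174 at genes that fell, against 210 over all tested genes. Tested genes were split by level into 5 groups of equal size. In the group with the strongest H3K4me3, with mean counts of 352 to 1511, 2 of 3070 genes rose (0.0651%) and 34 fell (1.11%). In the group next to the weakest, from 92.7 to 170.0, 126 rose (4.10%) and 78 fell (2.54%). The 2 strong promoters that rose were those of dre-mir-21-1, a gene of microRNA miR-21, and cebpa, a myeloid transcription factor gene. The cebpa window overlaps that of another gene. At the other end, gata6, a cardiac transcription factor gene, had the strongest promoter among the called genes, at a mean count of 743, with -0.75 (SE 0.21) on the log2 scale in the authors' deposited table. The median SE of the log2 fold change was 0.29 in the weakest group and 0.22 in the strongest, so smaller changes could pass at strong promoters.

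**Figure D1:**
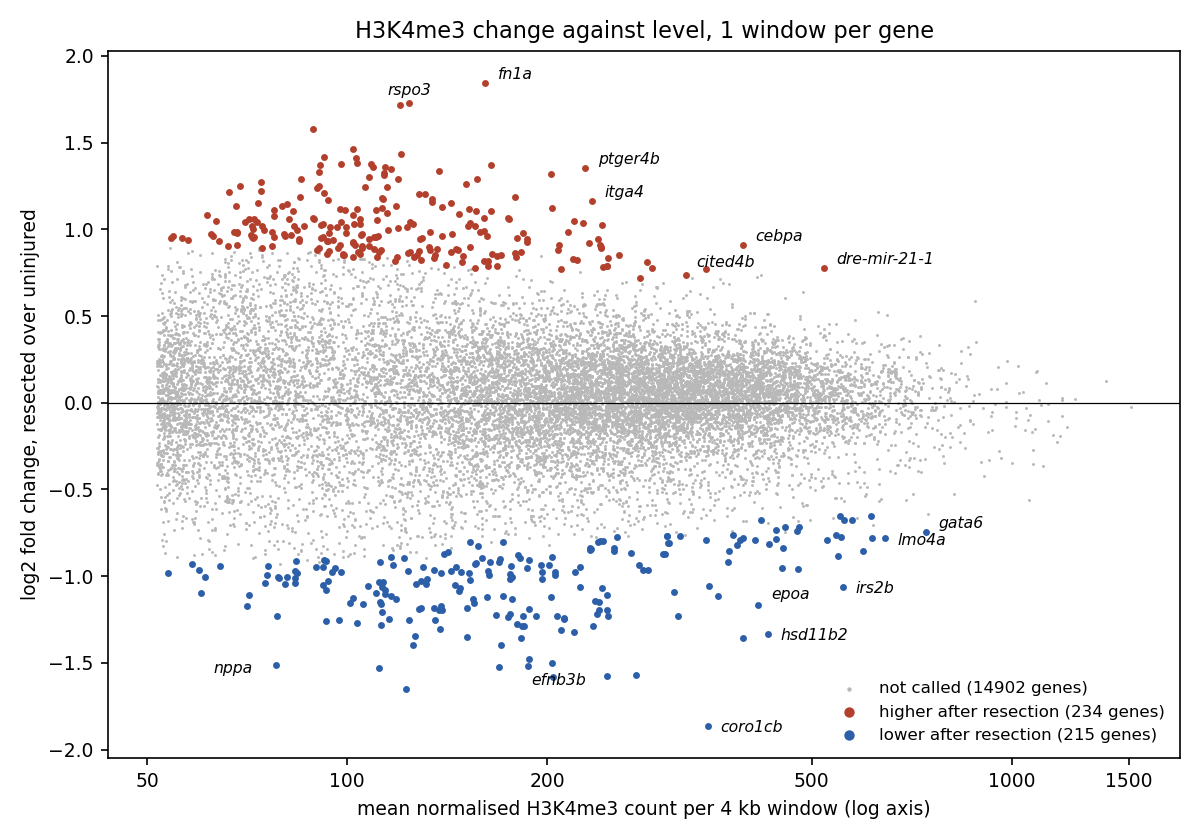
Log2 fold change of H3K4me3, resected over uninjured, against the mean normalised count of the gene's strongest window on a log axis, for 15351 tested genes. Red points are the 234 genes higher after resection, blue points the 215 lower ones and grey points the 14902 not called. Red points thin out above a mean count of about 352, where 2 genes rose and 34 fell.

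Markers of several cell types moved in the same libraries. Their mean counts are over both groups together. Of 12 cardiomyocyte markers 11 were tested and 8 fell. The tested ones had a median log2 fold change of -1.23, and the mean counts of all 12 ran from 49.8 to 203 with a sum of 1738. Of 6 epicardial markers 4 rose (BNC1, tbx18, wt1a and wt1b), while tcf21 and aldh1a2 had 0.21 and 0.26 and did not pass. Their mean counts ran from 66.4 to 253 and summed to 821, and the wt1a window overlaps that of another gene. Of 7 leukocyte markers 6 were tested and 4 rose (spi1b, lcp1, coro1a and laptm5), with mean counts over the list of 41.3 to 126 and a sum of 676. Of 5 red cell markers, the globin genes hbaa1 and hbba1 rose, but their windows overlap and share reads. The others, gata1a, alas2 and klf1, had 0.47, 0.17 and 0.72 and did not pass. Mean counts over the red cell list ran from 87.8 to 209 and summed to 755. Of 7 endothelial markers 6 were tested, and kdrl and nfatc1 fell, with mean counts over the list of 28.3 to 441 and a sum of 2016. No fibroblast marker of 4 tested was called, and their median was 0.16. Skeletal muscle and liver markers had mean counts between 28.2 and 49.3, and none had an adjusted p. No marker of any list was at 0 counts, and sums per group could not be formed without values per library. The part of a changed cell mixture in the gene values below was not tested.

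The plot of classes shows where calls gathered. A gene can belong to several classes, so counts of different classes can share genes. The 5 heart muscle classes together held 51 of the 215 losses. Of 68 sarcomere genes 25 fell (36.8%, median log2 fold change -0.75) and 1 rose. Of 37 calcium handling and conduction genes 10 fell (median -0.69), of 29 genes of cardiac hormones and muscle metabolism 7 fell (24.1%, median -0.29), and of 35 cardiac transcription factor genes 7 fell (median -0.44). The class of intercalated disc and cardiac junction genes moved least, with 2 of 21 lower (9.52%, median -0.12). Cell cycle genes held 39 gains among 205 tested (19.0%, median 0.40) and no loss, and leukocyte genes 19 among 107 (17.8%, median 0.47) and no loss. With windows that overlap those of another gene left out, 23 cell cycle genes were higher. These shares stand against 1.52% higher and 1.40% lower over all tested genes. Of 26 epicardial genes 7 rose (26.9%) and 1 fell, with a median of 0.32. Of 54 endocardial and endothelial genes 8 fell (14.8%, median -0.41). Without the authors' filter on low counts, 4 of the 8 endothelial losses (kdr, kdrl, heg1 and ramp2) were not called.

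**Figure D2:**
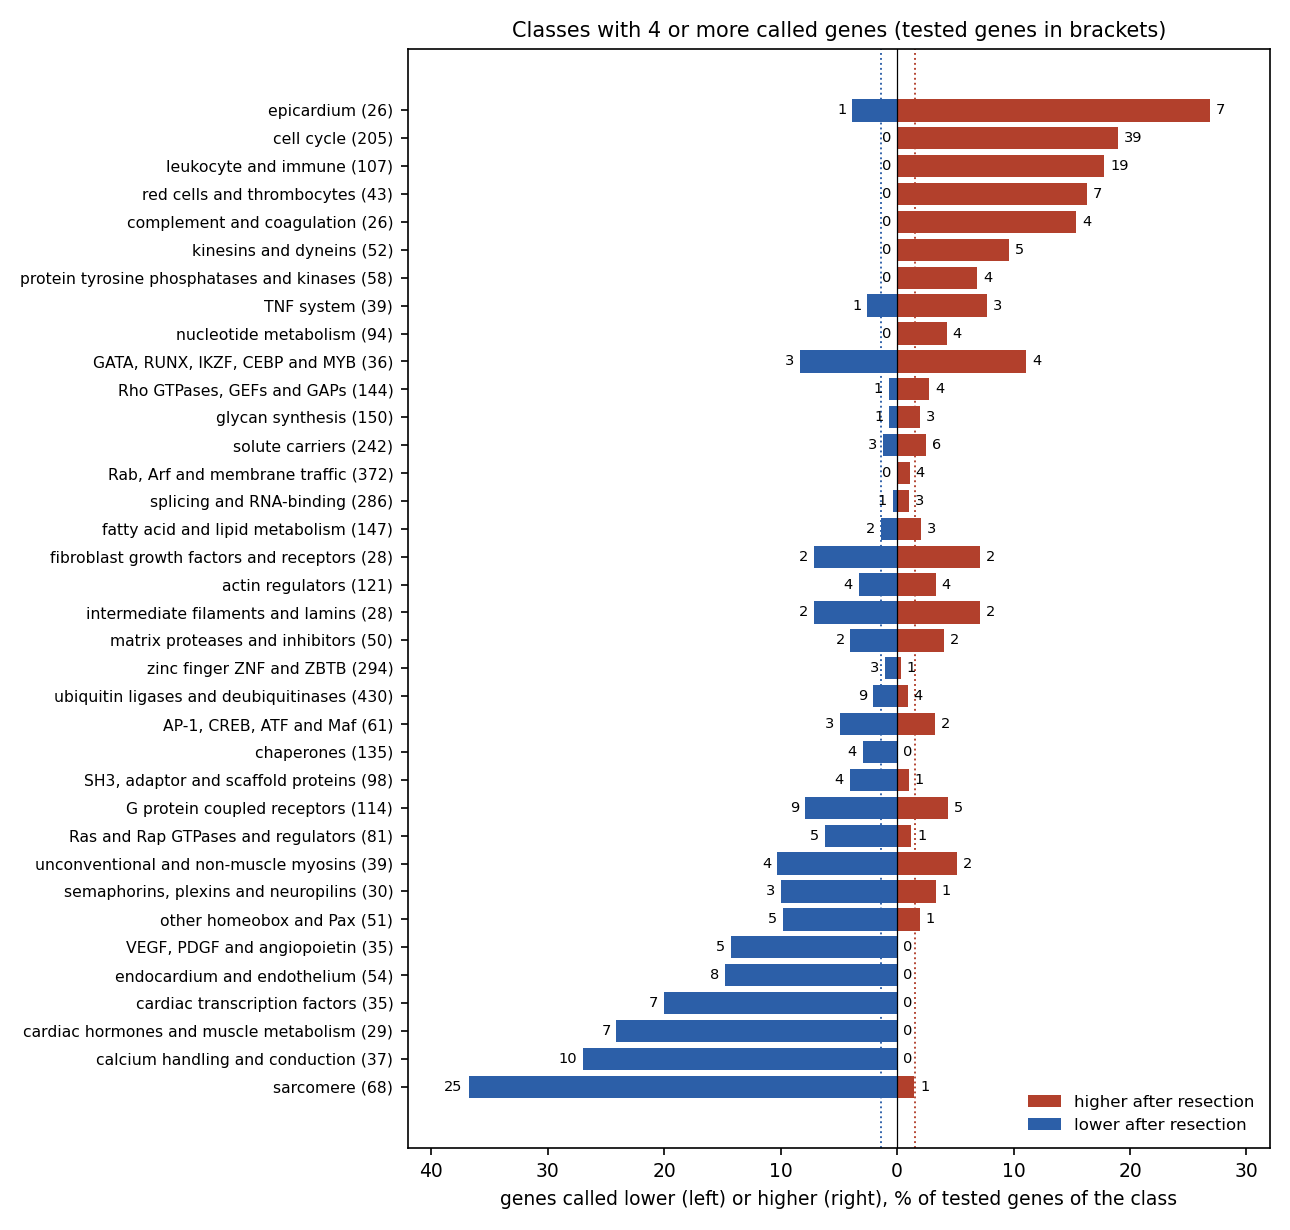
Share of tested genes called higher (red, right) or lower (blue, left) after resection in each class with at least 4 called genes. Numbers at the bar ends are genes, brackets give the tested genes of the class, and dotted lines mark the shares over all tested genes, 1.52% higher and 1.40% lower. Sarcomere genes reach 36.8% lower, and epicardial genes, cell cycle genes and leukocyte genes reach the highest shares of gains.

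The largest gains outside the 3 themes began with secreted and matrix proteins. The promoter of fn1a, which encodes fibronectin of the provisional wound matrix, led all genes. Its window on chromosome 9 at 15451437 to 15455436 had a mean count of 161 and rose 3.59-fold (log2 1.84, adjusted p = 1.9e-09, SE 0.25) in the authors' deposited table. For rspo3, an R-spondin that amplifies Wnt signalling, with its window on chromosome 16 at 40349025 to 40353024, the authors' deposited table gives a mean count of 120 and 1.71 (SE 0.26, 3.28-fold, adjusted p = 4.04e-07). No other of the 55 tested genes of the Wnt pathway class rose, so that 1.82% were higher, near the 1.52% over all tested genes. In this class fzd3a and fzd4, Wnt receptor genes, fell (3.64%, against 1.40%). They fell by 1.03 and 0.72 on the log2 scale in the authors' deposited table, and fzd4 was not called without the low-count filter. Of 48 provisional and basement matrix genes, vcanb, a versican gene, also rose (1.18, SE 0.26 in the authors' deposited table), and nid1b, which encodes a nidogen of basement membranes, fell (-0.95, SE 0.26). In that class 4.17% were higher and 2.08% lower. The integrin gene itga4, whose product pairs with a beta subunit to bind fibronectin, was the 1 called gene of 18 integrins (5.56%). It had 1.16 (SE 0.23) and a mean count of 233 in the authors' deposited table. Of 26 collagen genes col12a1a rose (3.85%), with 0.97 (SE 0.28) in the authors' deposited table, and the median over the class was 0.06.

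Other large gains were at single genes of varied function. The authors' deposited table gives 1.41 (SE 0.26, mean count 103) for rbm47 and 1.15 (SE 0.26) for rbm38, which encode RNA-binding proteins, in a class where 3 of 286 genes rose, a smaller share than the 1.52% over all tested genes. It gives 1.2996 (SE 0.27) for a gene listed as MYOF, for myoferlin, which acts in membrane repair and fusion, and 1.25 (SE 0.28) for entpd2a.1, for an enzyme that breaks down extracellular ATP. The gasdermin gene dfna5a, whose product can open pores in dying cells, had 1.25 (SE 0.26), and map3k8, for a kinase of inflammatory signalling, had 1.12 (SE 0.23) in the authors' deposited table. Cell division genes outside the cell cycle list were also among them: stil, needed to duplicate centrioles, and dbf4b, for an activator of a replication kinase (1.18 and 1.13 in the authors' deposited table). The windows of stil and dbf4b overlap those of other genes.

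Receptors for prostaglandins, lipids and hormones split in both directions. Of 114 tested G protein coupled receptor genes 5 rose (4.39%, against 1.52% over all tested genes) and 9 fell (7.89%, against 1.40%). The class median was -0.10. Those that rose were ptger4b and ptger2a, for receptors of prostaglandin E2, lpar5a, for a receptor of lysophosphatidic acid, gpr183a, for an oxysterol receptor of immune cells, and adrb3a, a beta adrenergic receptor gene. The authors' deposited table gives 1.36 (SE 0.24) for ptger4b, 1.26 (SE 0.24) for lpar5a, 1.22 (SE 0.28) for gpr183a, 0.99 (SE 0.24) for ptger2a and 0.81 (SE 0.25) for adrb3a, which was not called without the low-count filter. Those that fell answer other ligands as well: ptger4a, gpr22a (an orphan receptor), adrb1 (the beta-1 adrenergic receptor), crhr1 (a receptor of corticotropin-releasing hormone), hrh3 (histamine), vipr1b (vasoactive intestinal peptide), avpr1aa and avpr1ab (vasopressin) and adora2aa (adenosine). Their log2 fold changes in the authors' deposited table ran from -1.29 at ptger4a over -1.23 at gpr22a and -1.15 at adrb1 to -0.79 at adora2aa. Windows of hrh3 overlap those of another gene, where signal cannot be given to one of them, and vipr1b and avpr1ab were not called without the low-count filter.

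The 2 zebrafish genes for the prostaglandin receptor EP4 moved in opposite directions. At ptger4b, on chromosome 5 at 34796593 to 34800592, the mean count was 228 and the fold 2.56, and at ptger4a, on chromosome 8 at 845079 to 849078, it was 185 and 0.410, in the authors' deposited table. The adjusted p was 2.01e-05 for ptger4b and 0.000169 for ptger4a. Among 1373 pairs of tested genes whose symbols differ only in a final a or b, 96 held a called gene and 9 held 2. Over all tested genes 2.92% were called, a share per gene and not per pair. A pair has 2 chances of a call, and the share of pairs that chance gives was not computed. Such pairs are mostly duplicates left from the genome doubling of bony fish, but some are merely named alike. In 6 of the 9 both genes moved the same way, as at wt1a and wt1b or at flnca and flncb, and in 3 they did not. The other opposite pairs were lifrb and lifra, for receptors of leukaemia inhibitory factor, and lmo4b and lmo4a, for LIM-domain co-regulators. In the authors' deposited table lifrb had 1.103 (SE 0.24) and lifra -0.98 (SE 0.25), while lmo4b had 0.85 (SE 0.25) and lmo4a -0.78 (SE 0.21). These 3 pairs were picked out after their values were seen. A weaker window of lmo4a was tested and not called.

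In most pairs with a call, 1 gene passed and the other did not. With 2.92% of all tested genes called, this was likely in any case and is not evidence of a difference within pairs. The ephrin gene efnb3b had -1.58 and efnb3a -0.04, at mean counts of 246 and 236, in the authors' deposited table. For insulin receptor substrate genes it lists -1.06 (SE 0.25) at irs2b, and 0.03 at irs2a, which did not pass. The versican genes vcanb and vcana had 1.18 and -0.27, and the deubiquitinase genes usp43b and usp43a had -1.06 and 0.41 in the authors' deposited table. At sall1a and sall1b, for zinc finger factors, the values were -0.66 (SE 0.20) and 0.81, the second of which did not pass, and sall1a was not called without the low-count filter. The difference between the genes of a pair was not tested, and these pairs were chosen after their values were seen.

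Among tyrosine kinase, complement and TNF genes most calls were gains. Of 58 genes of protein tyrosine kinases and phosphatases 4 rose (6.90%) and none fell, with a median of 0.09. They were hck and lyn, for Src-family kinases of myeloid cells, syk, for a kinase downstream of immune receptors, and ddr2a, for a receptor of fibrillar collagen. The authors' deposited table gives 1.35 (SE 0.26) for hck, 1.34 (SE 0.25) for lyn, 1.01 (SE 0.27) for ddr2a and 0.94 (SE 0.29) for syk, and the last was not called without the low-count filter. Of 26 complement and coagulation genes c1qb and c1qc, plat, for tissue plasminogen activator, and f13a1b, for a subunit of clotting factor XIII, rose (15.4%), with a class median of 0.14. In the authors' deposited table these had 1.13, 1.15, 0.98 and 0.85, and f13a1b was not called without that filter. Of 39 TNF system genes tnfsf12, tnfrsf11a and tnfaip8l2a rose (7.69%) and tnfrsfa fell (2.56%). Without that filter tnfaip8l2a and tnfrsfa were not called. Over all tested genes 1.52% were higher and 1.40% lower. The leukocyte list also holds c1qb, c1qc and syk. In the leukocyte marker list 4 of 6 tested genes rose in the same libraries.

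Motor and cytoskeletal families held calls in both directions. Their shares below stand beside 1.52% higher and 1.40% lower over all tested genes. Of 52 kinesin and dynein genes 5 rose (9.62%) and none fell, with a median of 0.02, and all of them, kif2c, kif11, kif20ba, kif20a and kif14, encode kinesins known from mitosis. All but kif14 are also in the cell cycle list, and kif14 was not called without the low-count filter. Of 121 actin regulator genes 4 rose and 4 fell (3.31% each). Those that rose were fmnl1a and diaph3, for formins, and coro1a and lcp1, for a coronin and a plastin of leukocytes, with values between 1.03 and 1.12 in the authors' deposited table. Those that fell were coro1cb and coro6, for other coronins, fhod3a, for a formin of the cardiac sarcomere, and synpo2lb, for a Z-disc protein. The coro1cb promoter, on chromosome 5 at 31302410 to 31306409, had the largest loss of all genes, with a mean count of 349 and -1.86 (adjusted p = 4.98e-09, 0.275-fold, SE 0.26) in the authors' deposited table, and an overlapping window of the same gene had -0.51 and was not called. Of 39 genes of unconventional and non-muscle myosins and their kinases myh9a and myo9b rose (5.13%), and mylk3, mylk4b, myh14 and rock2b fell (10.3%). The sarcomere list also holds mylk3 and mylk4b. The rock2b window overlaps that of another gene, and myh14 was not called without the low-count filter. Of 28 genes of the class of intermediate filaments and lamins 2 rose and 2 fell (7.14% each). The epithelial keratin genes krt4 and KRT18 were higher (0.96 and 1.04 in the authors' deposited table). Lower were desma, the desmin gene, and plecb, a plectin gene counted in this class (-1.25 and -1.15). The epicardial list also holds krt4 and KRT18, and the sarcomere list also holds desma.

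Of 242 solute carrier genes 6 rose (2.48%) and 3 fell (1.24%), near the 1.52% and 1.40% over all tested genes, with a median of 0.08. The gains were at slc43a3b, slc16a10, slc7a7, slc7a5, slc1a5 and slc2a6, the last for a carrier of the glucose transporter family. The product of slc43a3b carries purine bases in mammals, whereas those of slc16a10, slc7a7, slc7a5 and slc1a5 carry amino acids. The leukocyte list also holds slc43a3b. The authors' deposited table gives 1.38 for slc43a3b, 1.204 for slc16a10 and 1.06 for slc7a7, and 0.88 for slc7a5 and 0.77 for slc1a5, which were not called without the low-count filter. The losses were at slc22a16, slc38a3b and slc18a2. Of 94 nucleotide metabolism genes 4 rose (4.26%) and none fell. They were dck, for deoxycytidine kinase, tyms, for thymidylate synthase, and 2 genes listed as rrm2, for the small subunit of ribonucleotide reductase. The cell cycle list also holds tyms and both rrm2 genes. The windows of tyms and of both rrm2 genes overlap those of other genes, and 1 of the rrm2 genes was not called without the filter. Of 150 glycan synthesis genes fut7, chst15 and gfpt2 rose (2.00%) and hs6st3b fell (0.667%), near the 1.52% and 1.40% over all tested genes. The gain of gfpt2 was not called without the filter.

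Among the largest losses outside the 3 themes were genes of signalling at the cell surface and of hormone turnover. At efnb3b, for an ephrin that signals on contact between cells, the authors' deposited table gives a mean count of 246 and -1.58 (SE 0.27, adjusted p = 1.52e-05), with the window on chromosome 7 at 20697498 to 20701497. The fibroblast growth factor genes fgf3 and fgf17 had -1.35 (SE 0.28) and -1.27 (SE 0.29) in the authors' deposited table, while in the same class of 28 genes fgfr1a, for a receptor, and flrt3 rose (1.08 and 0.85). That is 7.14% of the class in each direction, against 1.52% higher and 1.40% lower over all tested genes. At hsd11b2, for the enzyme that inactivates cortisol, the mean count was 430 and the value -1.33 (adjusted p = 3.41e-05, SE 0.24) in the authors' deposited table. The gene of the mineralocorticoid receptor, nr3c2, fell as well (-0.95, SE 0.21, mean count 452 in the authors' deposited table). It was 1 of 3 losses among 49 nuclear receptor genes (6.12%, against 1.40% over all tested genes), beside esrrga and nr1d4b, and none rose. Without the low-count filter nr1d4b was not called.

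Further large losses were at genes that act in heart muscle although the heart muscle lists did not hold them. The authors' deposited table gives -1.28 (SE 0.28) for rnf207b, whose product regulates a cardiac potassium channel, -1.23 (SE 0.29) for alpk3a, for a kinase mutated in human cardiomyopathy, -1.21 (SE 0.28) for fbxl22, for an F-box protein of the Z-disc, and -1.196 (SE 0.27) for sorbs2b, for a Z-disc adaptor. Ion balance genes included atp1a3b, for a catalytic subunit of the sodium pump (-1.28, SE 0.25 in the authors' deposited table). Of 430 ubiquitin ligase and deubiquitinase genes 9 fell (2.09%, against 1.40% over all tested genes) and 4 rose (0.930%, against 1.52%). The class median was 0.05. The losses included trim63a and trim63b, for muscle ring-finger ligases that mark sarcomere proteins, which the sarcomere list does hold. Of 81 genes of Ras and Rap GTPases and their regulators 5 fell (6.17%, against 1.40%) and rasgrp4 rose (1.23%, against 1.52%). Among the 5 were rrad and rem1, for small GTPases that restrain voltage-gated calcium channels (-0.99 and -0.97 in the authors' deposited table). The dab2ipb window, another of the 5, overlaps that of another gene. In the same libraries 8 of 11 tested cardiomyocyte markers fell.

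**Figure D3:**
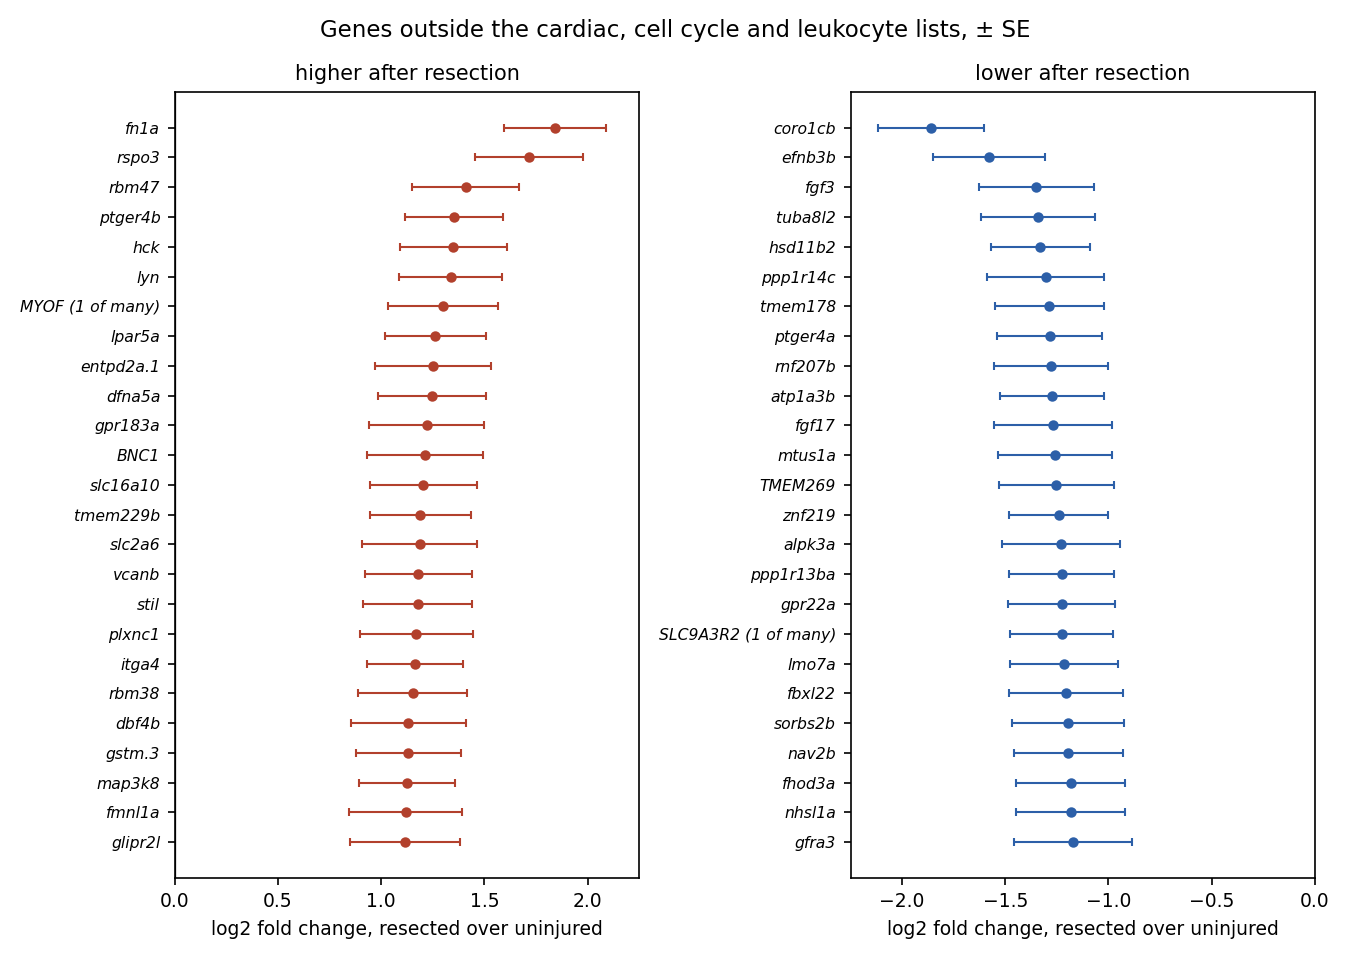
Log2 fold changes with SE bars for the 25 genes in each direction with the largest change among called genes outside the heart muscle, cell cycle and leukocyte lists. Gains run from 1.84 at fn1a to 1.12 at glipr2l, and losses from -1.86 at coro1cb to -1.17 at gfra3. The bars of most neighbours overlap, so the order among them is not resolved.

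Single genes of metabolism were also among the losses. The promoter of irs2b, which carries the insulin signal, had a mean count of 558 on chromosome 9 at 8473731 to 8477730. Genes of glycogen turnover fell at ppp1r3cb, for a subunit that brings a phosphatase to glycogen, stbd1, for a glycogen-binding protein, and g6pcb, for a catalytic subunit of glucose-6-phosphatase. The authors' deposited table gives -1.06 (SE 0.24) for ppp1r3cb, -1.01 (SE 0.28) for stbd1 and -1.16 (SE 0.28) for g6pcb, and these 3 genes were singled out after their values were seen. Of 147 fatty acid and lipid metabolism genes lpl, for lipoprotein lipase, and lpin1, for a phosphatidate phosphatase, fell (-0.91 and -0.89 in the authors' deposited table), while lipg, agpat4 and lrp1ab rose. That is 1.36% lower and 2.04% higher, near the 1.40% and 1.52% over all tested genes. Of these agpat4 and lrp1ab were not called without the low-count filter. The lipg and agpat4 windows overlap those of other genes, and lipg was not called with such windows left out. Among 45 glycolysis genes gapdh fell (2.22%), with -0.97 (SE 0.28) in the authors' deposited table, and the class median was -0.08.

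Of 135 chaperone genes 4 fell (2.96%, against 1.40% over all tested genes) and none rose. They were unc45b, for a chaperone of muscle myosin, hspb1, for a small heat shock protein, hspa12b and dnajc22, with values between -1.05 and -0.78 in the authors' deposited table. The sarcomere list also holds unc45b and hspb1. The hspb1 and dnajc22 windows overlap those of other genes, and hspa12b and dnajc22 were not called without the low-count filter. With overlapping windows left out, another window stood for hspb1 and its log2 fold change changed sign.

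Of 35 genes of VEGF, PDGF and angiopoietin signalling 5 fell (14.3%) and none rose, with a median of -0.17: vegfab, pgfb and angpt1, for ligands, and kdr and kdrl, for VEGF receptors. The authors' deposited table gives -1.005 (SE 0.29) for pgfb, -0.99 (SE 0.27) for angpt1 and -0.79 (SE 0.22) for vegfab, and without the low-count filter kdr and kdrl were not called. Of 30 genes of semaphorins, plexins and neuropilins 3 fell (10.0%), all semaphorin genes (sema3aa, sema3gb and sema4c), and plxnc1, for a plexin receptor of leukocytes, rose (1.17, SE 0.27 in the authors' deposited table). Without the filter sema4c was not called. Of 19 Eph receptor and ephrin genes 1 fell, and none of 13 genes of Slit, Robo, netrin and Unc5 was called. The losses also took in epas1b, for hypoxia-inducible factor 2 alpha (-1.09, SE 0.23 in the authors' deposited table). It was the 1 loss in a class of 68 basic helix-loop-helix and Id genes (1.47%), near the 1.40% over all tested genes. That class leaves out her6, which also encodes a factor of this type and was counted in the Notch pathway class. There 2 of 26 genes were called, her6 and lfng, for a target and a modulator of Notch signalling (-0.88 and -0.76, 7.69% lower). The endocardial and endothelial list also holds angpt1, kdr and kdrl. Of 7 endothelial markers kdrl, already among the VEGF losses above, and nfatc1 fell in the same libraries.

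Most tested genes of the transcription factor families below were not called. Over all tested genes 1.52% were higher and 1.40% lower. Of 51 homeobox and Pax genes outside the Hox clusters 5 fell (9.80%) and 1 rose (1.96%). The losses were nkx2.5, prox1a, irx1a, irx2a and irx5a, all of which the cardiac transcription factor list also holds, and the gain was prrx1a, a mesenchymal factor gene. In the GATA, RUNX, IKZF, CEBP and MYB class of 36 genes mybl2b, ikzf1, cebpa and lmo4b rose and runx1t1, lmo4a and gata6 fell. The mybl2b window overlaps that of another gene. Among 29 forkhead genes foxm1 and foxg1c rose (6.90%) and foxp2 fell (3.45%). Among 61 AP-1, CREB, ATF and Maf genes atf5a and mafbb rose (3.28%) while mafb, mafk and creb3l3b fell (4.92%). The windows of foxm1 and mafbb overlap those of other genes. Of the last class mafbb, mafk and creb3l3b were not called without the low-count filter. Of 294 zinc finger genes of the ZNF and ZBTB type 1 was higher (0.340%) and 3 were lower (1.02%). The gain was not called without that filter.

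Many families of housekeeping function held no called gene. None of 54 proteasome, 60 nuclear pore, 139 RNA polymerase and Mediator, 104 translation factor, 35 aminoacyl tRNA synthetase, 96 cytosolic ribosomal protein, 75 mitochondrial ribosomal protein, 129 respiratory chain, 40 TCA cycle and 64 amino acid metabolism genes passed the authors' DESeq2 test. At an unadjusted p under 0.05 these classes held, in the same order and higher with lower together, 1, 0, 1, 1, 1, 2, 1, 3, 4 and 4 genes. Over all tested genes 2.92% were called, and at the unadjusted level 6.17% were higher and 5.80% lower. Median mean counts of the tested genes of these classes ran from 195 to 335, and level was not matched. In the level group from 250.9 to 352.1, 0.195% of all tested genes rose and 0.651% fell. Their median log2 fold changes lay between -0.05 at the TCA cycle and 0.18 at the proteasome. None of 149 genes for enzymes of histone methylation and acetylation was called either, with 3 higher and 6 lower at an unadjusted p under 0.05. No other DESeq2 or edgeR fit could be made without values per library, and a p that misses the threshold does not show that a promoter kept its level.

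Some genes were called at a weaker promoter window and not at their strongest one. Among 529 tested genes with another tested window that did not overlap the strongest, 510 were not called at the strongest, and at 5 of them a weaker window rose and at 17 one fell. Weaker windows that overlap those of other genes were not left out of these counts. The rising window of erlec1 overlaps the called window of agpat4. Of all tested windows 1.44% were higher and 1.51% lower. With so few called, a strongest window was likely to be uncalled in any case. A call at the weaker window alone is not evidence of a difference between windows. In the authors' deposited table March8, for a ubiquitin ligase of membrane traffic, had 1.39 (SE 0.26) at a window with a mean count of 103 and -0.25 (SE 0.22) at its strongest window, with 403, on chromosome 13. The phosphatase gene ptp4a3 had -1.43 (SE 0.27) at a weaker window and -0.24 (SE 0.25) at its strongest. For tpm4a, a tropomyosin gene, the values in the authors' deposited table were -1.37 (SE 0.27) and -0.29 (SE 0.22), and for mef2d, a muscle transcription factor gene, -1.18 (SE 0.29) and -0.13 (SE 0.23). The DNA methyltransferase gene dnmt3ab had -1.14 (SE 0.26) and 0.06 (SE 0.24) in the same order. The difference between windows of a gene was not tested, since the table gives no covariance between them. The genes named here were chosen after their values were seen.

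The reverse pattern, a called strongest window beside another that did not pass, was seen at all 19 called genes with such a window, 3 higher and 16 lower. With 2.95% of all tested windows called, this was likely in any case and is not evidence of a difference between windows. At epoa, an erythropoietin gene, the strongest window on chromosome 7 at 21637514 to 21641513 had a mean count of 415 and -1.16 (SE 0.25), and a window 12581 bases away had 275 and 0.53 (adjusted p = 0.277, SE 0.23) in the authors' deposited table. For vmhcl, ttn.2, mtus1a and plecb the weaker window, with mean counts of 53.8 to 57.2, had log2 fold changes between 0.02 and 0.21. For hoxb4a, the 1 called gene of 7 Hox and ParaHox genes, the strongest window had 0.82 (SE 0.25) and the weaker one -0.14 (SE 0.29) in the authors' deposited table, and it was not called without the low-count filter.

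**Figure D4:**
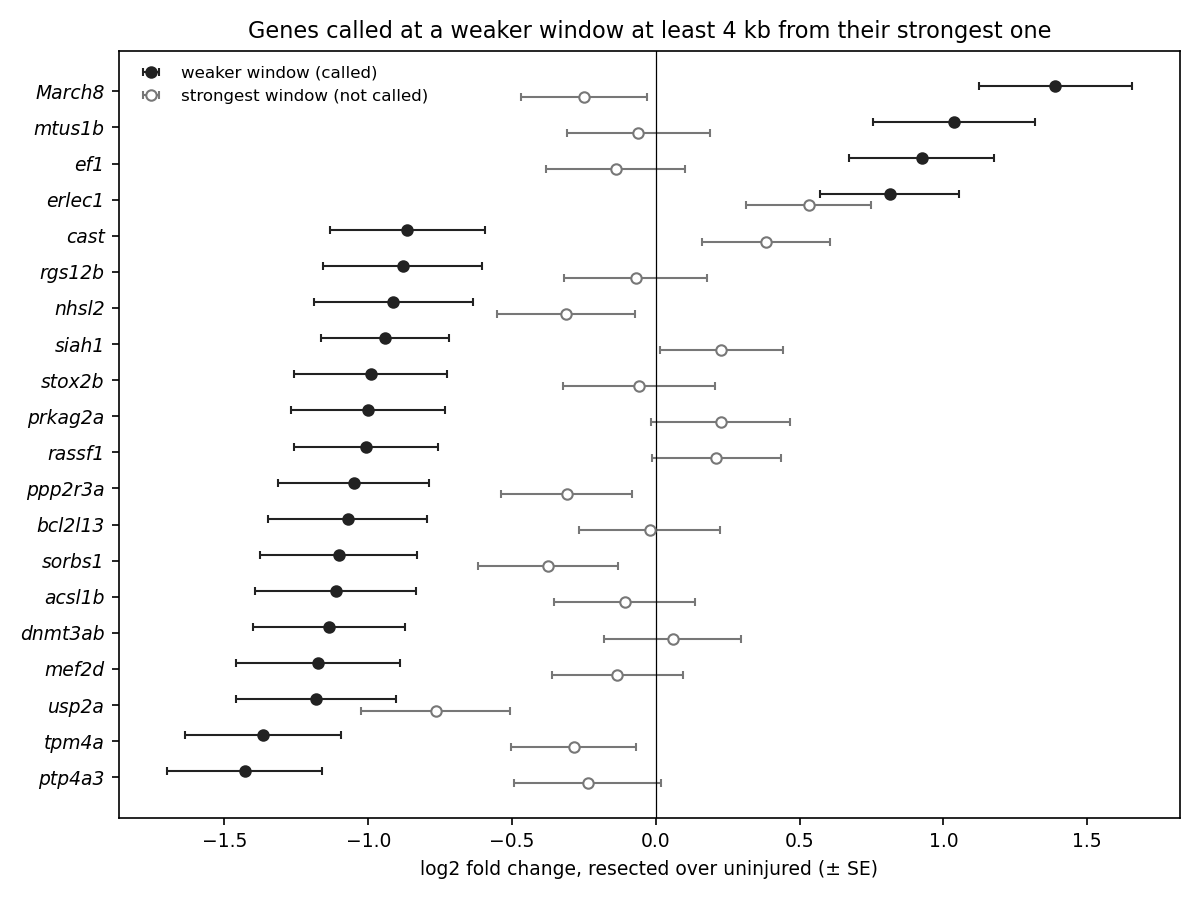
Genes called at a weaker window (filled points) and not at their strongest window (open points), with log2 fold changes of resected over uninjured and SE bars. The windows of a gene start at least 4 kb apart. At March8 the points lie at 1.39 and -0.25, and at ptp4a3 at -1.43 and -0.24.

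Called genes that lay close together were compared by direction. The 449 called genes lay at 431 loci once overlapping windows were merged, 222 higher and 209 lower. Genes merged into a locus share reads, so their common direction says nothing of neighbours. Windows of 25.6% of the higher genes and 10.2% of the lower ones overlapped a window of another gene, against 31.2% of all tested genes. Of 28 pairs of called genes within 100 kb whose windows did not overlap, 22 moved the same way. A cluster of globin genes on chromosome 3 gave 8 of these 22, and without it 14 of 20 pairs moved alike. The share that chance gives was not computed. Other close pairs were c1qb with c1qc, lmod2b with asb15b, which was not called without the low-count filter, and krt4 with KRT18. The 6 pairs that moved apart included ttk (0.89, SE 0.26), for a mitotic checkpoint kinase, and soga3a (-1.04, SE 0.28) on chromosome 16, and lrrc15 (0.82, SE 0.23) and her6 (-0.88, SE 0.22) on chromosome 6, in the authors' deposited table, and the ttk window overlaps that of another gene. By chromosome, the share of tested genes called ran from 0.883% on chromosome 22 to 4.92% on chromosome 7, where 19 genes rose and 23 fell.

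H3K27me3, the mark of Polycomb repression, was measured in other libraries of the same groups and leaned the opposite way at these windows. Its log2 fold change was above 0 at 59 of 233 genes that gained H3K4me3 (25.3%) and at 173 of 214 that lost it (80.8%), against 6314 of 15239 tested genes (41.4%). The medians were -0.19, 0.32 and -0.09. Outside the 3 themes the shares were 28.7% among 174 gains and 77.3% among 163 losses. No window passed for H3K27me3 itself, where 0 of 24075 genes were called (0.00%) and 748 had an unadjusted p under 0.05 (3.11%). Of the genes that rose, 1 was higher and 15 were lower for H3K27me3 at that unadjusted level, and of those that fell, 14 were higher and none lower. Over all tested genes 123 were higher and 425 lower. Called genes with a proper symbol and an unadjusted p under 0.05 for H3K27me3 were compared by their H3K27me3 value. The largest values opposite to H3K4me3 were at gata6 and dre-mir-21-1. At gata6 the H3K27me3 value was 1.32 (SE 0.42, unadjusted p = 0.00151), beside -0.75 for H3K4me3. At dre-mir-21-1 it was -1.49 (SE 0.71, unadjusted p = 0.0371), beside 0.78, in the authors' deposited tables. The H3K27me3 mean count at dre-mir-21-1 was 23.9, and its H3K4me3 gain was not called without the low-count filter. Genes are not independent replicates, and whether a changed cell mixture moves both marks was not tested.

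**Figure D5:**
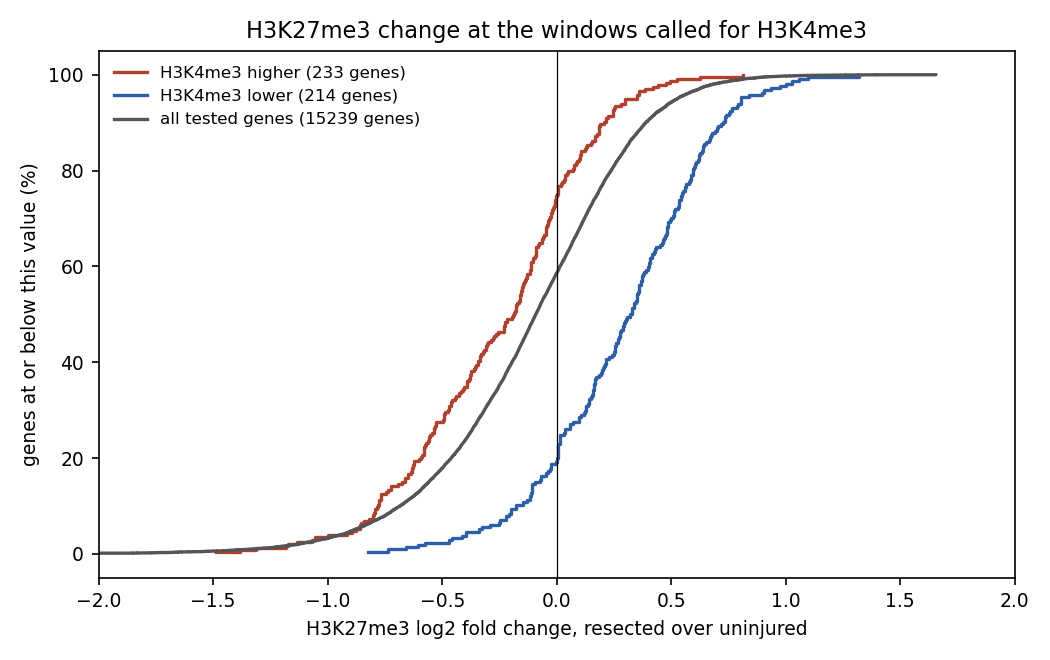
Cumulative share of genes by H3K27me3 log2 fold change, resected over uninjured, at windows higher for H3K4me3 (red, 233 genes), lower for it (blue, 214 genes) and at all tested genes (grey, 15239 genes). At 0 the red curve has passed 74.7% of its genes and the blue curve 19.2%.

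Calls at the edge of the threshold were close to genes just outside it. Just inside stood gmip and gnai2b among gains (0.90 and 0.78 in the authors' deposited table) and tnfrsfa and creb3l3b among losses (-0.65 and -0.80). Just outside stood aurka and snd1 (0.84 and 0.72) and hk1 and cryabb (-0.84 and -0.93), with adjusted p-values of the authors' deposited table between 0.0505 and 0.0512.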

How the data were processed

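The signal of a window is its normalised read count, averaged by the authors over both groups of a mark, per the file headers. The column names are those of DESeq2 results, per the file headers. Log2 fold changes and their standard errors were deposited by the authors. The score is the authors' Wald statistic per the file headers, within 0.0106 of the fold change over its error. Each p-value and adjusted p-value was deposited by the authors. The submitters' processing notes name DESeq2, MACS2, Bowtie2 2.3.2, BWA, bedtools 2.26.0, Picard 2.8.1 and SAMtools, and 3 build names (GRCz10, danRer10 and danRer7), without saying what each was used for. Peak calling, filters, size factors and the depth of each library are therefore not given in the sources used here. Per the labels' protocols the antibody was Cell Signaling C42D8.

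Calls were read from the authors' table in Python 3.11.15 with pandas 2.3.3, in place of a count test, which needs values per library. Standard errors stop at 0.301, as under a zero-centred normal prior of SD 0.603 (log2), so fold changes were taken as shrunken. The calling code was tested on simulated data. Gene classes came from 17 lists and 93 symbol patterns, and 7 patterns were corrected after the symbols were seen. Members, classes and rules were chosen with earlier results of these data known. Genes were named by rule: the largest changes overall (10 per direction) and outside the 3 themes (25 per direction), up to 6 called members per class and direction by p, and called genes standing out by a second window, a close called neighbour, level or H3K27me3. The genes lifra, lifrb, wt1b, flncb, ramp2, hrh3, vipr1b, avpr1ab, asb15b, ttk, soga3a and lrrc15 fell outside it and were chosen after their values were seen. A gene was called without the low-count filter when its p passed after Benjamini-Hochberg adjustment over all windows.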

Additional observations from a re-analysis of the deposited data

Results flagged for a closer look

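All 22 windows of the mitochondrial genome, which were left out of every comparison, were lower after resection at an adjusted p under 0.05, with a median log2 fold change of -1.15 and a range of -1.62 to -1.02 in the authors' deposited table. Mitochondrial DNA carries no histones, and reads there do not measure the mark. The values are shown because they lie outside the main measurement and moved in the direction of the heart muscle genes, and their cause was not tested.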

How the results depend on the processing

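With an adjusted p under 0.01 in place of 0.05, 164 windows were higher and 206 lower, 101 genes were higher and 108 lower, and called windows merged into 221 loci. With 0.1, 327 genes were lower. With a mean count of at least 100, 215 windows and 142 genes were higher, by construction since weaker promoters are left out. All other counts of windows, genes and loci stayed within 1.5 times of those reported. Of 120 counts of a class in 1 direction, many of them of 1 or 2 genes, more than 1.5-fold moves were seen in 76 at 0.01, 28 at 0.1, 35 at a mean count of at least 100, 22 with no filter on low counts, 22 with overlapping windows left out, 7 where all tested windows had to be called and 2 where any window sufficed. With no filter on low counts 179 genes were higher and 184 lower, of which 177 and 182 were among those reported, and 47 of 279 named genes were not called. Leaving out windows that overlap those of another gene turned the log2 fold change of mybl2b to -0.047, of dhrs3b to 0.15, of hspb1 to 0.12, of rock2b to 0.013 and of dab2ipb to 0.39, since another window then stood for the gene. Adjusting p without the mitochondrial windows changed no call of a gene. No paired analysis was possible because the table holds no value per library. For the same reason leaving out each library, edgeR and a new DESeq2 fit were not run. Promoter motifs were not searched, since no promoter sequence was used here. Depth limits the weakest promoters, where no mean count under 51.8 was tested.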

Other observations

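Genes known only by clone or unplaced names took part as well. Of 2991 tested genes with such names 39 were higher and 23 were lower (2.07% in all, against 2.92% over all tested genes), and their median log2 fold change was 0.04. Of 372 genes of membrane traffic 4 were higher (1.08%, against 1.52% over all tested genes) and none lower, and at an unadjusted p under 0.05 13 were higher and 11 lower. The 4 were arl4cb, rab11fip1b, rab11fip5a and vamp8, of which rab11fip5a and vamp8 were not called without the low-count filter. Among matrix proteases and their inhibitors adam8a, a protease gene of leukocytes, and timp2b, for an inhibitor of metalloproteinases, were higher, and adamts5 and adamts9, for proteases that cut proteoglycans, were lower, out of 50 tested. In the authors' deposited table adam8a had 0.96 (SE 0.27) and adamts5 -0.94 (SE 0.25), the adam8a window overlaps that of another gene, and timp2b was not called without the low-count filter.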
